A study of Mus musculus with 6 samples.

Results

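Collagens and laminins are the structural proteins of the extracellular matrix, and 53 of the 56748 genes in the count table make up the set described here. They are the protein-coding genes named Col or Lam followed by chain numbers, with a mean of at least 0.5 CPM, the count scaled to a common library total, over the 6 libraries. The rule found 55 such symbols and dropped 2 for low level. By role, 19 were basement membrane chains (type IV, XV and XVIII collagens and the 11 laminin chains), 9 were fibrillar collagen chains and 25 were other collagen chains. Whole cerebellum came from 6 adult C57BL/6J mice aged 90 to 120 days. Methylmercury (MeHg) is an organic mercury compound toxic to neurons. In the MeHg group (n = 3) the dams drank water with 0.2 ppm MeHg from the start of pregnancy to birth, and in the Control group (n = 3) the water held 0 ppm. The offspring had no further dosing stated in the labels and carried no engineered allele.

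Basement membranes are thin sheets around brain vessels, at the pial surface and under the choroid plexus. Laminin trimers of an alpha, a beta and a gamma chain lie against the cells, and type IV collagen forms a covalent network beside them. Fibrillar collagens, made mostly by fibroblasts, give the meninges and vessel walls their tensile strength. Other collagens decorate fibrils, form beaded or hexagonal networks, or span the cell membrane, and several of the last kind are made by neurons.

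The 6 libraries held 14116088 to 20303833 counts. Cerebellar markers were high throughout, with 12 granule cell genes summing to 5296 to 7608 CPM and 12 Purkinje cell genes to 6689 to 9447 CPM. Of the 12 granule cell genes, 5 were called lower in MeHg, beside 1.79% of all tested genes. Their fold change was positive in 0 of 12 (median -0.35). At an unadjusted p under 0.05, 9 were lower, beside 12.7% of all tested genes. Of the 12 Purkinje cell genes 0 were called, and 2 had a positive fold change (median -0.18). Each group was labelled as 2 females and 1 male. But Control replicate 2, labelled female, held 215.6 CPM of 4 Y-linked genes, which stood at 0 in the other libraries labelled female. Control replicate 3 held 226 CPM and MeHg replicate 2 held 201 CPM of them, so by this RNA sex was not balanced between the groups. Libraries also differed in RNA that marks tissue next to the cerebellum. Summed over 14 choroid plexus markers, such as Ttr, the level was 2066, 457 and 29.4 CPM in Control replicates 1, 2 and 3 and 2999, 1702 and 7262 CPM in MeHg replicates 1, 2 and 3. Of these 14 genes, 1 was at 0 counts in Control replicate 3 and none in the other 5 libraries. The sum over 12 brainstem and midbrain markers reached 313 CPM in MeHg replicate 2, against 26.0 to 67.7 CPM elsewhere. Of 14 choroid plexus markers edgeR, DESeq2 and limma-voom each called 0, while 9 were higher at an unadjusted p under 0.05. Of 8 tested brainstem markers edgeR and limma-voom called 0 and DESeq2 1, with 6 higher at an unadjusted p under 0.05. In whole tissue, fewer cells of a type and less RNA per cell cannot be told apart.

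Per gene length, the most abundant member was the basement membrane chain Col18a1, the source of endostatin, with a mean of 16.7 FPKM over the 6 libraries. FPKM divides the count by gene length and library total. Next were Col9a3 (15.6 FPKM), a chain of the fibril-associated type IX collagen, and the laminin beta chain Lamb2 (6.31 FPKM). The order of the first pair is not resolved: Col18a1 ranged from 12.5 to 19.4 FPKM and Col9a3 from 10.6 to 26.8 FPKM, and in MeHg the mean was higher for Col9a3 (19.4 ± 6.99 FPKM) than for Col18a1 (16.6 ± 3.64 FPKM). Col9a2, at 5.63 FPKM, followed, then the fibrillar chain Col5a1 at 5.14 FPKM and the laminin chain Lamb1 at 4.70 FPKM. Among fibrillar chains Col11a2 (2.90 FPKM), Col1a2 (2.84 FPKM) and Col1a1 (2.59 FPKM) lay close together. Their library values overlapped, so their order is not resolved. The least abundant member was Col22a1 at 0.0529 FPKM. Some values are uncertain if strand was not used in counting: 896 exonic bases of Col18a1 lie opposite exons of Slc19a1, and 535 of Col9a3 opposite Tcfl5. More than 10% of exonic bases overlapped another gene in 5 members.

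**Figure D1:**
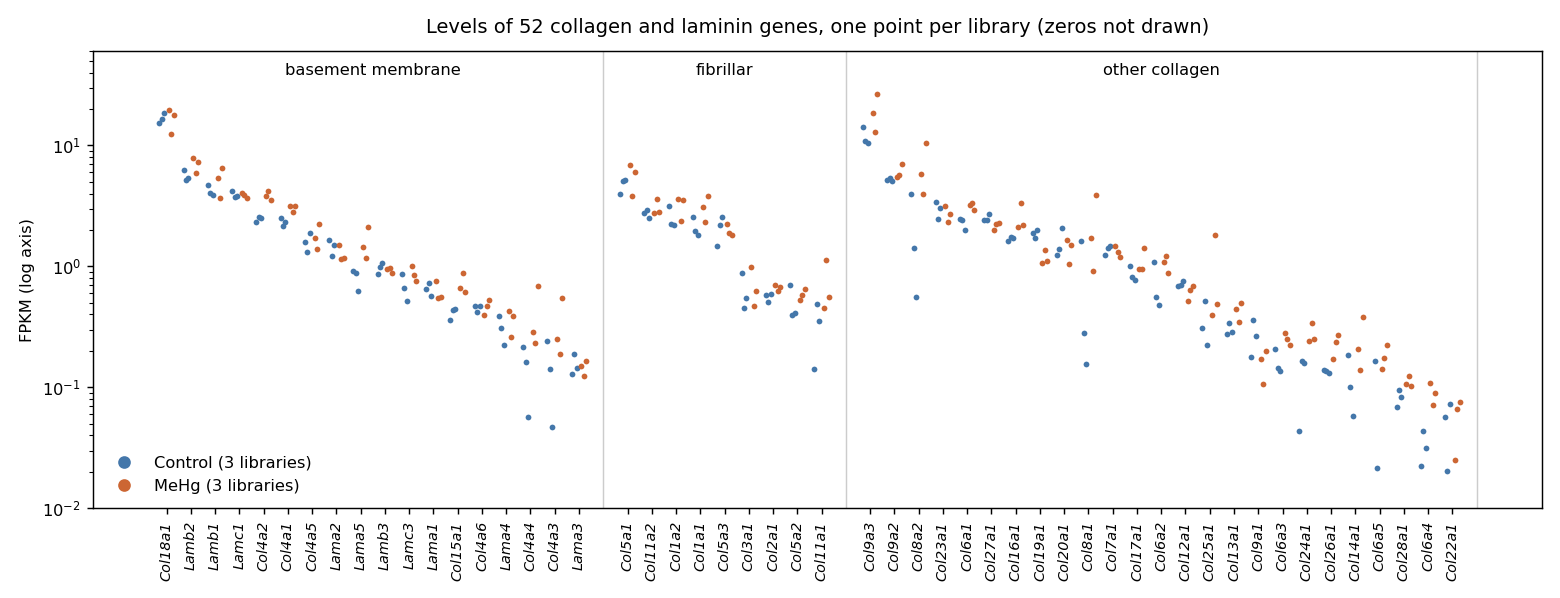
FPKM (log axis) of 52 of the genes in each of the 3 Control (blue) and 3 MeHg (orange) libraries, ordered by mean FPKM within the 3 role groups. Col18a1 (mean 16.7 FPKM) and Col9a3 (15.6 FPKM) lead, and Col22a1 (0.0529 FPKM) is lowest.

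The comparison of MeHg with Control asked whether dosing of the dams was followed by other RNA levels in the adult offspring. Of the 53 members 52 had enough counts to be tested. Of these, 1 was called higher in MeHg, the type IV collagen chain Col4a2, and 0 were called lower (edgeR quasi-likelihood test over 16859 genes, adjusted p under 0.05). Of all tested genes 0.575% were called higher and 1.79% lower. DESeq2 called 5 members higher and 1 lower, where it called 3.39% and 5.26% of all genes. Limma-voom called 1 higher and 0 lower, where it called 0.475% and 1.65% of all genes. At an adjusted p under 0.1, edgeR counted 7 members higher (3.78% of all genes) and 1 lower (6.03%). At an unadjusted p under 0.05 it counted 17 higher and 2 lower. These are 32.7% and 3.85% of the members, beside 11.8% and 12.7% of all genes. The 17 include Col4a4, Col6a4 and Col24a1, and the 7 include Col6a4. These genes met the filter on low counts in every MeHg library but not in every Control library, which favours higher values in MeHg.

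The median log2 fold change was 0.32 over the 52 tested members and 0.01 over all genes. It was 0.22 for the basement membrane chains, 0.24 for the fibrillar chains and 0.56 for the other collagens. Leaving out 1 library gave 0.12 (without MeHg replicate 3) to 0.41 (without Control replicate 1) for the basement membrane chains and 0.22 to 0.50 (without Control replicate 1) for the fibrillar chains. Without MeHg replicate 2 these medians were 0.37 and 0.39. Limma on log2 FPKM plus 1 gave 0.10 and 0.12 for these groups and 0.14 for the other collagens. Within the basement membrane group, the 11 laminin chains had a median of -0.01 and the 6 type IV chains 0.53, or 0.29 without Col4a3 and Col4a4, which passed the filter on low counts only through MeHg. For 15 members all MeHg libraries lay above all Control libraries (13.9% of all tested genes), for 2 all lay below (15.5%), and for 35 the groups overlapped. The filter on low counts asked for about 0.640 CPM in 3 libraries, and 6 members met it in every MeHg library but not in every Control library: Col4a3, Col4a4, Col6a4, Col6a5, Col14a1 and Col24a1. Over the other 46 tested members the median was 0.24, with 0.18 for their basement membrane chains and 0.41 for their other collagens. For 12 of them all MeHg libraries lay above and for 2 below.

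The highest value was in MeHg replicate 3 for 17 of 52 members, in MeHg replicate 1 for 13 and in MeHg replicate 2 for 9. Of all tested genes these libraries were highest for 19.5%, 11.4% and 22.7%. Centred on each gene's mean, the members' median log2 CPM was 0.23 in MeHg replicate 1, 0.01 in MeHg replicate 2 and 0.20 in MeHg replicate 3. It was -0.04, -0.19 and -0.24 in Control replicates 1, 2 and 3. MeHg replicate 2 thus lay near Control replicate 1. Without MeHg replicate 2, 8 members were called higher and 1 lower, and 2.16% and 4.16% of all genes. Without Control replicate 1, Control replicate 3, MeHg replicate 1 or MeHg replicate 3 no member was called. Of all genes 0% were called there, apart from 0.0117% higher without MeHg replicate 1, so the absence of calls is not particular to the members. In those 4 fits 10 to 21 members (6.57% to 11.6% of all genes) were higher at an unadjusted p under 0.05 and 1 to 2 (8.29% to 11.8%) lower. Without Control replicate 2, 1 member was called higher and 0 lower, beside 0.281% and 1.01% of all genes.

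**Figure D2:**
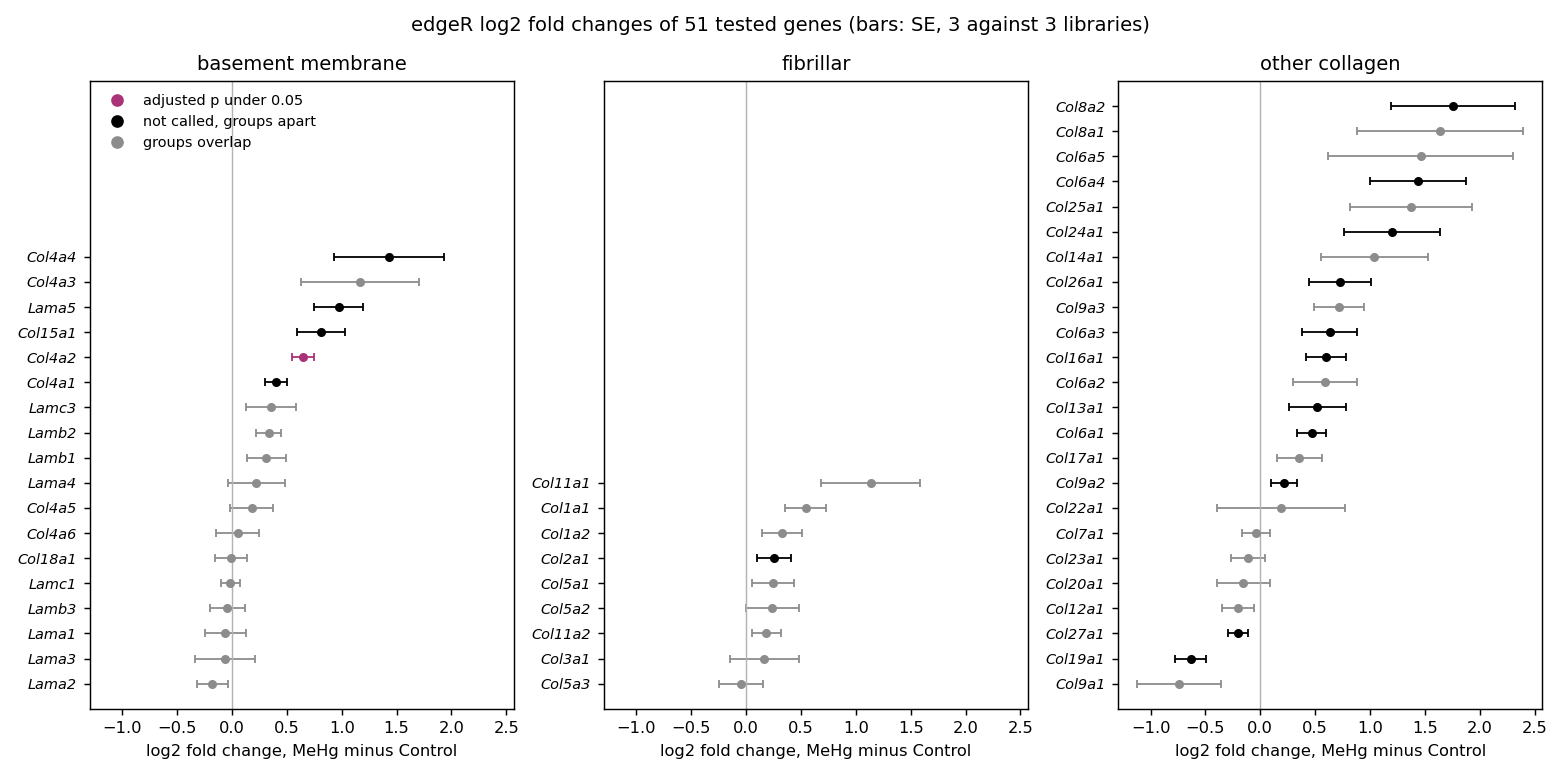
edgeR log2 fold change, MeHg minus Control, of 51 tested genes with its SE, in 3 panels by role. Col4a2 is the called gene (0.65), black points mark genes whose 3 MeHg and 3 Control libraries do not overlap, and the largest values are those of Col8a2 (1.75) and Col8a1 (1.64), with wide SEs.

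Type IV collagen chains assemble into 3 networks, and their genes lie in 3 head-to-head pairs. Col4a1 and Col4a2, the chains of the network found in nearly all basement membranes, face away from each other on chromosome 8 (Col4a1 11248423 to 11362826, minus strand; Col4a2 11362805 to 11499287, plus strand, mm39). In the GENCODE vM39 annotation their exons lie opposite each other over 311 bases. Of the exonic bases there, 4.94% of Col4a1 and 4.93% of Col4a2 overlapped another gene, so both values are uncertain if strand was not used. The deposited gene models share 22 bases, chr8:11362805-11362826. These bases are shown on the plus strand because reads from them cannot be assigned to either gene without strand, with a GC box, GGGCGG, in capitals:
Col4a1 and Col4a2 overlap: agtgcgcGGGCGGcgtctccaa

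Col4a2 stood at 16.4, 18.0 and 17.7 CPM in Control replicates 1, 2 and 3 and at 26.9, 29.8 and 25.0 CPM in the MeHg replicates. Every MeHg library was above every Control library. Its mean rose from 17.4 ± 0.830 CPM (SD, n = 3) to 27.2 ± 2.43 CPM. This is 0.65 ± 0.10 (SE) on the log2 scale, with an adjusted p of 0.0431. The call was lost without Control replicate 1 (adjusted p = 0.125), Control replicate 3 (0.207), MeHg replicate 1 (0.0644) or MeHg replicate 3 (0.146), with an offset for gene length (0.0735), and with limma on log2 FPKM plus 0.1 (0.0763) or plus 1 (0.0785), so that it held in 10 of 17 alternatives. In the fits that lost it, 0 of all tested genes were called, apart from 2 without MeHg replicate 1. The log2 fold change of Col4a2 was 0.48 to 0.71 over all alternatives. Col4a1 stood at 19.7, 17.2 and 18.4 CPM in controls and at 25.4, 22.8 and 25.0 CPM in MeHg, again without overlap. Its log2 fold change of 0.40 ± 0.10 did not pass (adjusted p = 0.0635, and 0.0361 to 0.243 over the alternatives).

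The second pair, Col4a3 and Col4a4, encodes chains of a network known from kidney glomeruli and a few other epithelia, and lies on chromosome 1 with 71 bases between the deposited models. Col4a4 was at 2.43, 1.85 and 0.647 CPM in controls and at 3.28, 2.68 and 7.75 CPM in MeHg (1.43 ± 0.50, adjusted p = 0.131). Col4a3 was at 2.54, 1.50 and 0.503 CPM in controls and at 2.66, 2.03 and 5.86 CPM in MeHg (1.17 ± 0.53, adjusted p = 0.218). Both were lowest in Control replicate 3 and highest in MeHg replicate 3, the libraries with the lowest and highest choroid plexus markers (29.4 and 7262 CPM). The summed endothelial and ependymal markers had the same lowest and highest libraries. The part of any of these markers in the values of Col4a3 and Col4a4 was not tested. With 7 and 9 counts in Control replicate 3, both values there are imprecise. DESeq2 called Col4a4.

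The third pair, Col4a5 and Col4a6 on the X chromosome, has 1308 bases between the models. Col4a5, which joins the second network, was at 11.3, 9.38 and 13.6 CPM in controls and at 12.4, 10.1 and 16.1 CPM in MeHg (0.18 ± 0.20, adjusted p = 0.620). Col4a6 was at 4.01, 3.59 and 3.95 CPM and at 3.40, 4.06 and 4.52 CPM (0.05 ± 0.19, adjusted p = 0.899). The groups overlapped for both genes, and without MeHg replicate 3 both fold changes had the opposite sign. All 6 type IV chains had a positive fold change, beside 51.1% of all tested genes. Of the 6, Col4a3 and Col4a4 met the filter on low counts in every MeHg library but not in every Control library. That favours a positive sign. The difference between the pairs was not tested.

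**Figure D3:**
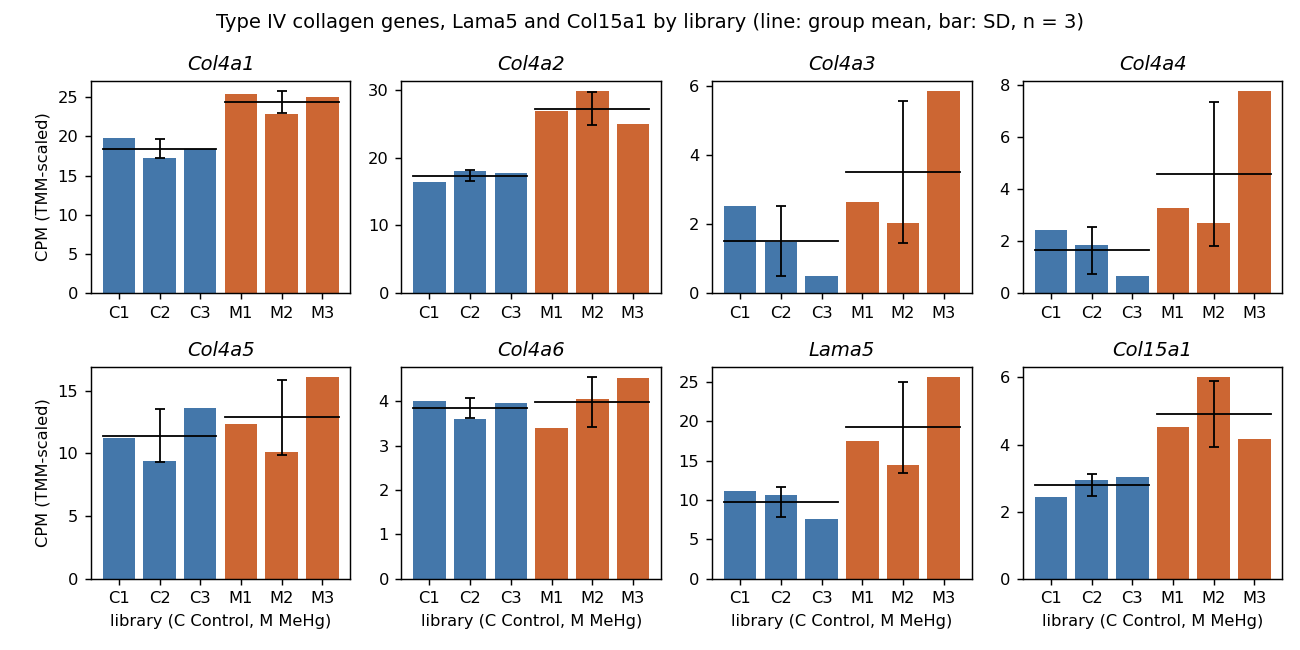
CPM of the 6 type IV collagen genes, Lama5 and Col15a1 in each library (C1 to C3 Control in blue, M1 to M3 MeHg in orange), with the group mean (line) and SD (error bar, n = 3). Col4a2 is level within each group (16.4 to 18.0 and 25.0 to 29.8 CPM), while Col4a3, Col4a4 and Lama5 have their highest bar in MeHg replicate 3.

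Among the laminins, Lama5 had the smallest p. It encodes the alpha chain of laminins of mature vessels and epithelia (chromosome 2, 179818166 to 179867652). It was at 11.1, 10.6 and 7.55 CPM in controls and at 17.6, 14.5 and 25.7 CPM in MeHg, without overlap. Its log2 fold change of 0.97 ± 0.22 did not pass (adjusted p = 0.0551). DESeq2 called it, as did edgeR without MeHg replicate 2 (adjusted p = 0.0174). Like Col4a3 it was highest in MeHg replicate 3 and lowest in Control replicate 3.

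The other alpha chains did not separate the groups. Lama2, the alpha chain of astrocyte and muscle laminin, ranged from 21.6 to 29.0 CPM in controls and from 20.5 to 26.5 CPM in MeHg (-0.18 ± 0.14, adjusted p = 0.476). Lama4, the endothelial alpha chain, was at 2.87 to 4.97 CPM in controls and 3.40 to 5.50 CPM in MeHg (0.22 ± 0.26). Lama1, a chain of the pial and embryonic basement membrane, was at 5.89 to 7.58 and 5.73 to 7.85 CPM (-0.06 ± 0.19). Lama3, the epithelial alpha chain, was at 1.47 to 2.15 and 1.44 to 1.89 CPM (-0.06 ± 0.27).

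Of the beta chains, Lamb2, a partner of mature laminins, was at 33.4 to 40.4 CPM in controls and 39.2 to 50.6 CPM in MeHg (0.33 ± 0.12, adjusted p = 0.128). Lamb1 was at 40.8 to 49.7 and 39.6 to 69.2 CPM (0.31 ± 0.18, adjusted p = 0.309). Lamb3, of epithelial laminin, was at 6.04 to 7.47 and 6.20 to 6.94 CPM (-0.04 ± 0.16). The gamma chain Lamc1, shared by most laminins, was at 32.8 to 37.1 CPM in controls and 32.2 to 35.9 CPM in MeHg. Its log2 fold change was -0.01 ± 0.09, with an adjusted p of 0.937. Lamc3, at 0.35 ± 0.22, overlapped between groups as well. The groups overlapped in 10 of 11 laminin chains and in 70.6% of all tested genes. With an offset for gene length the log2 fold changes of Lama1, Lama2, Lama3, Lamb3 and Lamc1 were positive, at 0.01 to 0.06.

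Type XV and XVIII collagens link basement membranes to the matrix around them. Col15a1 (chromosome 4, 47208161 to 47313167), a gene outside the rule for named genes and chosen after its values were seen, was at 2.43, 2.94 and 3.02 CPM in controls and at 4.51, 6.02 and 4.18 CPM in MeHg. The groups were apart, but the log2 fold change of 0.81 ± 0.22 did not pass (adjusted p = 0.0768). Col18a1 was at 114, 123 and 139 CPM in controls and at 146, 94.7 and 134 CPM in MeHg (-0.01 ± 0.14, adjusted p = 0.975). The lowest and the highest of its 6 values were both in MeHg libraries, and its sign turned with upper-quartile scaling (0.03).

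The fibrillar chains had no called gene, and the groups overlapped in 8 of 9, beside 70.6% of all tested genes. At an unadjusted p under 0.05 edgeR counted 2 higher and 0 lower (11.8% and 12.7% of all genes). DESeq2 and limma-voom called none of those named here, and 8 of 9 fold changes were positive, beside 51.1% of all tested genes. Col1a1, a chain of the main collagen of fibroblasts, was at 17.9, 13.7 and 12.7 CPM in controls and at 21.8, 16.4 and 26.4 CPM in MeHg (0.54 ± 0.19, adjusted p = 0.131). Its partner Col1a2 was at 41.3, 29.8 and 29.1 CPM and at 47.9, 31.5 and 46.4 CPM (0.33 ± 0.18, adjusted p = 0.304). For both genes Control replicate 1 exceeded MeHg replicate 2. The summed meningeal fibroblast markers did the same, at 158 CPM in Control replicate 1 and 142 CPM in MeHg replicate 2, against 117 and 117 CPM in the other controls and 176 and 185 CPM in MeHg replicates 1 and 3. Their part in the collagen values was not tested.

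Col5a1, a regulator of fibril diameter, was at 36.1 to 46.7 CPM in controls and 35.4 to 62.4 CPM in MeHg (0.24 ± 0.19, adjusted p = 0.472). Col11a2, of the cartilage type XI collagen, was at 18.2 to 21.6 and 20.4 to 27.0 CPM (0.18 ± 0.13, adjusted p = 0.433). Col11a1 was at 1.93, 6.63 and 4.82 CPM in controls and at 6.18, 15.6 and 7.55 CPM in MeHg (1.13 ± 0.45, adjusted p = 0.171). It was called with the replicate number as a block, a fit for which no pairing by number is known. Col2a1, the cartilage collagen and chosen after its values were seen, was the fibrillar chain whose groups were apart. It was at 5.04 to 5.82 CPM in controls and 6.22 to 6.93 CPM in MeHg (0.25 ± 0.16, adjusted p = 0.357).

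Of the 24 tested other collagens, 17 had a positive and 7 a negative fold change, where 51.1% of all tested genes were positive. The 24 include genes that met the filter on low counts in every MeHg library but not in every Control library. Col19a1 was among the 7. It encodes a fibril-associated collagen that neurons also make, and lies on chromosome 1 (24300971 to 24626553). It was at 13.7, 12.5 and 14.5 CPM in controls and at 7.91, 10.1 and 8.16 CPM in MeHg. The MeHg libraries were all below the controls, but the log2 fold change of -0.64 ± 0.14 did not pass (adjusted p = 0.0532). DESeq2 called it lower (adjusted p = 0.0127). So did edgeR with labelled sex as a term (0.0410), a fit that uses the label of Control replicate 2, which its Y-linked RNA goes against. Col27a1, chosen after its values were seen, was the other member whose MeHg libraries all lay below, at 27.9 to 31.5 CPM against 33.6 to 37.3 CPM (-0.20 ± 0.09, adjusted p = 0.204).

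Lama5, Col15a1 and Col19a1 had, with Col4a1 and Col4a2, the 5 smallest p-values among the members, so the 250 bases before their canonical starts are printed. The starts are those of GENCODE vM39 on GRCm39 (mm39), which lie 60, 579 and 458 bases upstream of the deposited models, and no annotated exon falls in the windows. Each is written 5′ to 3′ on the strand of its gene, with capitals for any GC box, CCAAT box or TATA box found on either strand.
Lama5 chr2:179867713-179867962, minus strand: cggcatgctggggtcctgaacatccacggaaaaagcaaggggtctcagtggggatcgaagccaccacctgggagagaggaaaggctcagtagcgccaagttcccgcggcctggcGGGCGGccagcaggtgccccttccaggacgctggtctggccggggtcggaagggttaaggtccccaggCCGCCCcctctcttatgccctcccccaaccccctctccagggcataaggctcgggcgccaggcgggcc
Col15a1 chr4:47207332-47207581, plus strand: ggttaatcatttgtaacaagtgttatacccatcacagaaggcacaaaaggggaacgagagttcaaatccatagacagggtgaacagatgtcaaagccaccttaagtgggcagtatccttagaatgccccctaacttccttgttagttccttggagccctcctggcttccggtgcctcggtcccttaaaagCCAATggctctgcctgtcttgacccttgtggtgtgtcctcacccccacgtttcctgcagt
Col19a1 chr1:24627012-24627261, minus strand: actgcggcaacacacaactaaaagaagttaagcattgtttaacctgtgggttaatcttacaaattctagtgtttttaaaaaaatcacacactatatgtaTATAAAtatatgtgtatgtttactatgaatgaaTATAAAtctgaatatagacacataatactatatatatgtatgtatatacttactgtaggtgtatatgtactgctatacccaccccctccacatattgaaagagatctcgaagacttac

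The Lama5 window was 68% G or C and held 2 GC boxes, a motif found in 36.3% of 21770 such windows of protein-coding genes. The Col15a1 window, 50% G or C, held 1 CCAAT box (36.5% of windows). The Col19a1 window, 30% G or C, held 2 TATA boxes, spelled TATAAA (11.9% of windows). These matches describe the letters and do not show a site in use.

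Type VI collagen forms beaded microfilaments around vessels and nerves. Its chain Col6a1 was at 11.5, 11.2 and 9.34 CPM in controls and at 14.9, 15.9 and 13.7 CPM in MeHg, without overlap (0.47 ± 0.13, adjusted p = 0.0833). The next 3 type VI chains were chosen after their values were seen. Col6a2, a neighbour of Col6a1 on chromosome 10, was at 9.54, 4.99 and 4.24 CPM and at 9.65, 11.0 and 7.82 CPM (0.59 ± 0.29, adjusted p = 0.246). Col6a3 was at 1.72 to 2.64 and 2.83 to 3.59 CPM (0.63 ± 0.25, adjusted p = 0.164). Col6a4, with 4 to 8 counts per library in controls and 10 to 16 in MeHg, passed the filter through its MeHg libraries and is imprecise (1.44 ± 0.44, adjusted p = 0.0969). Col16a1, a fibril-associated collagen, was at 11.5, 12.6 and 12.2 CPM in controls and at 15.2, 24.1 and 15.8 CPM in MeHg (0.60 ± 0.18, adjusted p = 0.0957).

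The 2 type VIII chains form the hexagonal lattice of endothelial basement membranes such as that of the cornea, and had the largest fold changes of all members. Col8a2 was at 18.7, 6.83 and 2.66 CPM in controls and at 27.9, 19.1 and 50.3 CPM in MeHg (1.75 ± 0.57, adjusted p = 0.111). Col8a1 was at 13.4, 2.34 and 1.29 CPM and at 14.3, 7.72 and 32.6 CPM (1.64 ± 0.76, adjusted p = 0.221). Within the controls alone, Col8a1 thus ranged from 1.29 to 13.4 CPM. Col9a3 was at 57.9, 44.4 and 43.3 CPM and at 75.9, 53.5 and 110 CPM (0.71 ± 0.23, adjusted p = 0.108). Its partner Col9a2 was at 16.8 to 17.7 and 18.1 to 22.9 CPM (0.22 ± 0.12, adjusted p = 0.287). Col9a3 and Col9a2 are not all the type IX chains, and no direction is given for type IX as a whole.

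These genes and the choroid plexus markers had the same highest and lowest libraries. So did the summed endothelial markers (293 CPM in Control replicate 3, 431 CPM in MeHg replicate 3) and ependymal markers (17.2 and 64.8 CPM). In 5 members, Col1a1, Col4a3, Col8a1, Col9a3 and Col14a1, the 6 libraries ranked exactly as in the summed choroid plexus markers, with Control replicate 3 lowest and MeHg replicate 3 highest. The same order held in 0.807% of all tested genes. Col4a3 and Col14a1 met the filter on low counts in every MeHg library but not in every Control library. The part of choroid plexus tissue or of the other marked cells in these values was not tested.

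Col25a1, a membrane-spanning collagen of neurons and chosen after its values were seen, reached 25.6 CPM in MeHg replicate 2, against 3.09 to 7.13 CPM elsewhere (1.37 ± 0.56, adjusted p = 0.176). Without MeHg replicate 2 its log2 fold change was 0.35. Col11a1 was also highest there (15.6 CPM), as was Col24a1 (2.81 CPM against 1.98 and 2.02 CPM in the other MeHg libraries and 0.355 to 1.35 CPM in controls), chosen after its values were seen. Col24a1 met the filter on low counts in every MeHg library but not in every Control library. The summed brainstem and midbrain markers had the same highest library (313 CPM). So did the summed oligodendrocyte (9081 CPM), oligodendrocyte precursor (378 CPM) and microglia (209 CPM) markers, and 22.7% of all tested genes. The part of any of these markers in the collagen values was not tested.

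**Figure D4:**
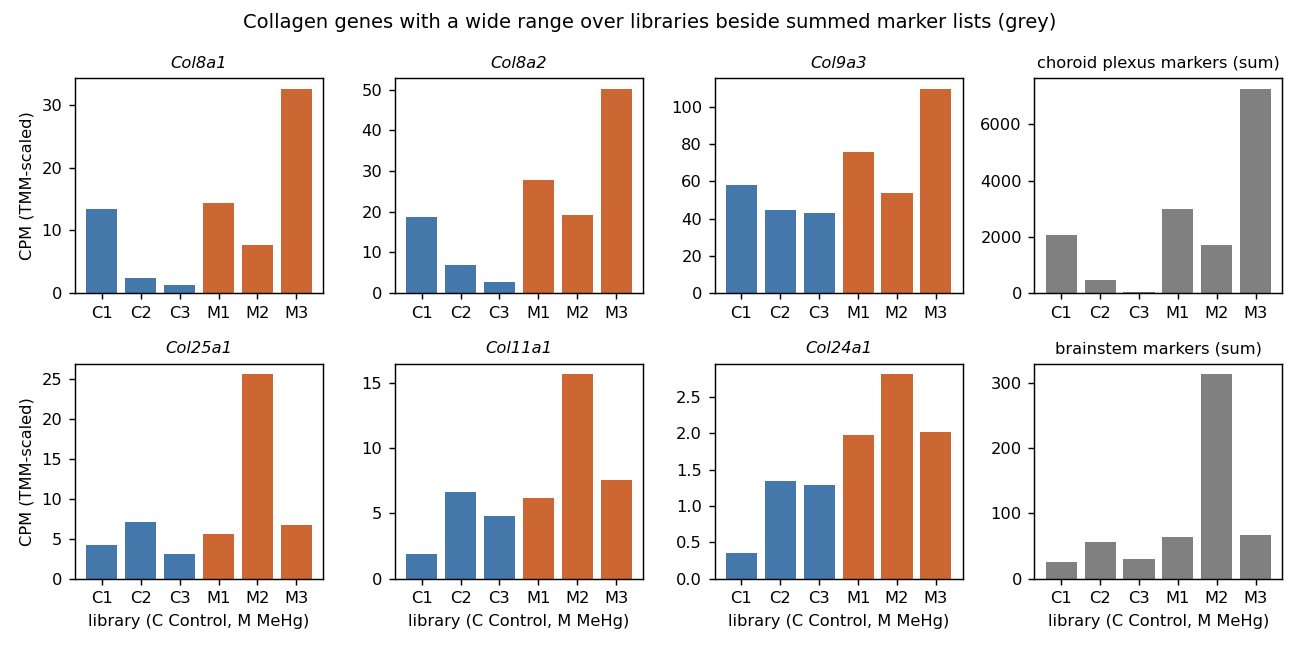
CPM by library of 6 collagen genes with a wide range, beside the summed CPM of the choroid plexus markers (upper row) and of the brainstem and midbrain markers (lower row), in grey. Col8a1, Col8a2 and Col9a3 peak in MeHg replicate 3, as do the choroid plexus markers (7262 CPM), and Col25a1, Col11a1 and Col24a1 in MeHg replicate 2, as do the brainstem markers (313 CPM).

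Just inside the level threshold lay Col28a1 (mean 0.506 CPM), which had too few counts to be tested, and Col22a1 (0.519 CPM). Just outside lay Col6a6 (0.476 CPM) and Col10a1 (0.145 CPM). Col22a1 had 4 to 11 counts per library and a log2 fold change of 0.19 ± 0.58.

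**Figure D5:**
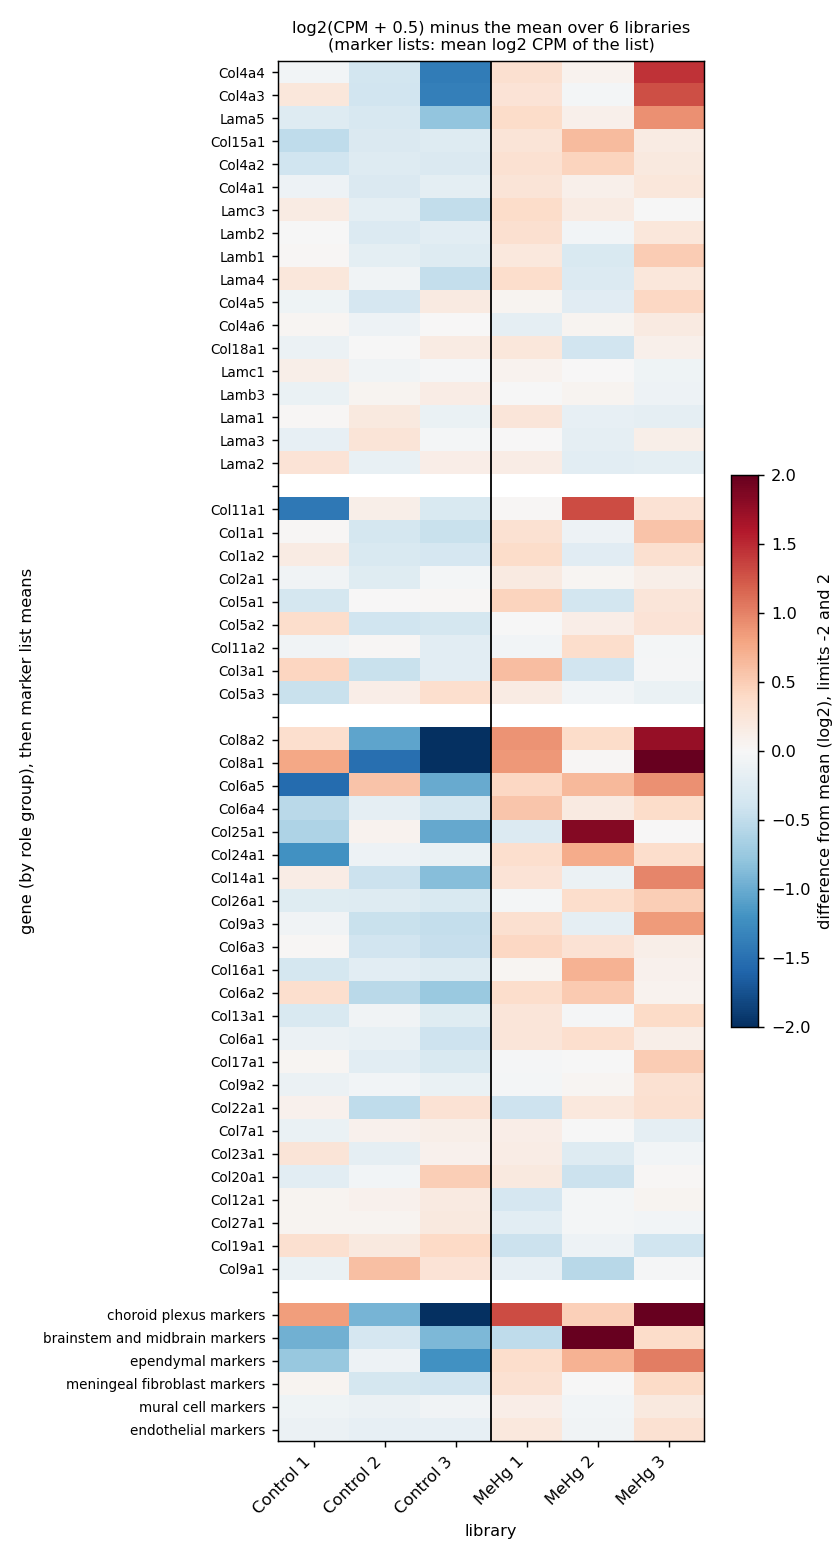
Difference of log2(CPM + 0.5) from each gene's mean over the 6 libraries for 51 tested genes by role, with the mean log2 CPM of 6 marker lists below. MeHg replicates 1 and 3 are mostly above the mean and Control replicates 2 and 3 mostly below, and the type VIII chains and the choroid plexus markers are highest in MeHg replicate 3.

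Chains need enzymes, partners and receptors to become matrix, and 5 lists of such genes were compared in the same fit. The calls named from them, and that of the endothelial gene Flt1, were each lost without any 1 of the libraries other than MeHg replicate 2, with the length offset and with limma on FPKM. In those fits 0 of all tested genes were called, apart from 220 without Control replicate 2 and 2 without MeHg replicate 1. The highest adjusted p of these calls was 0.207 for Bmp1, Tll1, Pcolce2, Npnt, Bcam, Itga7, Fbn1 and Flt1, and 0.220 for Ddr1. Of 28 tested genes for collagen processing 1 was called higher and 2 lower, with a median of 0.09. Both called lower, Bmp1 in 9 and Tll1 in 8 of 17 alternatives, encode tolloid proteases, which cut the propeptides off fibrillar collagens. Bmp1 fell from 267 ± 10.5 CPM to 202 ± 11.0 CPM (-0.40 ± 0.06, adjusted p = 0.0431) and Tll1 from 30.1 ± 1.91 CPM to 21.4 ± 1.37 CPM (-0.49 ± 0.10, adjusted p = 0.0433). Pcolce2, an enhancer of that cleavage, rose from 6.37 ± 0.679 CPM to 12.4 ± 1.99 CPM (0.96 ± 0.16, adjusted p = 0.0431), a call held in 9 of 17 alternatives.

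Of 15 basement membrane partners 1 was called higher and 0 lower, with a median of 0.43. Npnt, a basement membrane ligand of integrins, rose from 5.98 ± 0.169 CPM to 11.1 ± 2.68 CPM (0.89 ± 0.19, adjusted p = 0.0470), a call held in 7 of 17 alternatives. Egfl7, a matrix protein of endothelial cells, was at 5.25 to 7.38 CPM in controls and 8.59 to 13.7 CPM in MeHg and did not pass (0.78 ± 0.20, adjusted p = 0.0725).

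The receptor list held 20 genes. Among them was the myelin glycoprotein gene Mag, which is also an oligodendrocyte marker and was not meant for this list. Of the 20 genes 2 were called higher and 1 lower, with a median of 0.05. Bcam, a receptor for the laminin alpha chain made by Lama5, rose from 9.17 ± 2.45 CPM to 19.1 ± 1.70 CPM (1.05 ± 0.19, adjusted p = 0.0431). The collagen receptor kinase Ddr1 rose from 111 ± 4.85 CPM to 137 ± 6.18 CPM (0.31 ± 0.06, adjusted p = 0.0456). The laminin-binding integrin Itga7 fell from 94.2 ± 4.82 CPM to 74.7 ± 1.76 CPM (-0.33 ± 0.06, adjusted p = 0.0433). The call held in 9 of 17 alternatives for Bcam, 7 for Ddr1 and 8 for Itga7.

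Of 18 matrix proteoglycans and glycoproteins, with a median of 0.27, 1 was called higher and 0 lower. That gene was Fbn1, the microfibril protein fibrillin, which rose from 4.36 ± 1.37 CPM to 10.6 ± 1.79 CPM (1.27 ± 0.24, adjusted p = 0.0433). The Fbn1 call held in 9 of 17 alternatives, with log2 fold changes from 0.44 (limma on log2 FPKM plus 1) to 1.51. Lum, a proteoglycan on collagen fibrils and a fibroblast marker, was at 2.43 to 2.74 CPM in controls and 4.12 to 5.38 CPM in MeHg (0.89 ± 0.20, adjusted p = 0.0532). Of 17 tested matrix proteases and inhibitors, with a median of 0.26, edgeR and limma-voom called 0 and DESeq2 3. At an unadjusted p under 0.05 edgeR counted 7 higher and 0 lower. Mmp11 (1.17 ± 0.26) and Mmp15 (0.53 ± 0.12), matrix metalloproteinases, each had an adjusted p of 0.0532.

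Mural cells, endothelial cells and meningeal fibroblasts are known sources of these chains. The summed markers of mural cells, which wrap vessels, were at 186 to 207 CPM in controls and 206 to 253 CPM in MeHg. Of 11 tested, edgeR and limma-voom called 0 and DESeq2 1, with 4 higher at an unadjusted p under 0.05. Their fold change was positive in 8 of 11 (median 0.26), beside 51.1% of all tested genes. Endothelial markers summed to 293 to 319 CPM in controls and 334 to 431 CPM in MeHg. Of these 14, the receptor gene Flt1 was called higher (0.44 ± 0.09, adjusted p = 0.0440), in 9 of 17 alternatives. All 14 endothelial fold changes were positive (median 0.27), with 6 at an unadjusted p under 0.05. Of 12 tested meningeal fibroblast markers edgeR and limma-voom called 0 and DESeq2 1, with 5 higher at an unadjusted p under 0.05. All 12 fibroblast fold changes were positive (median 0.37). None of the genes listed for these 3 cell types was at 0 counts, apart from 1 fibroblast marker in Control replicate 3. Of 8 tested ependymal markers 2 were called, Foxj1 (1.17 ± 0.18, adjusted p = 0.0431) and Rsph1 (1.68 ± 0.32, adjusted p = 0.0433), and the 10 listed ependymal markers summed to 17.2 to 26.5 CPM in controls and 40.0 to 64.8 CPM in MeHg. The Foxj1 call held in 10 and the Rsph1 call in 8 of 17 alternatives. All 8 tested ependymal markers had a positive fold change (median 1.33). All 12 oligodendrocyte markers (median 0.30) and all 12 microglia markers (median 0.27) had a positive fold change, with 8 and 5 at an unadjusted p under 0.05 and none called by edgeR. DESeq2 called 4 and 0 of them, and limma-voom 0 and 0. The part of these cell types in the collagen and laminin values was not tested.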

How the data were processed

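RNA from 6 cerebella was sequenced with paired-end reads of 150 bases on an Illumina NovaSeq, per the labels. The submitters' processing notes name mm39 and DESeq2. For the aligner, the counter, the annotation release and the use of strand, the sources used here give nothing. The deposited count table holds raw counts per gene. The FPKM values deposited by the authors equal the count over gene length and a library total that exceeds the summed counts by 3.96% to 9.03%, more so in MeHg.

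Counts were filtered with filterByExpr (16859 genes left), scaled by TMM and compared by the edgeR 4.0.16 quasi-likelihood test (R 4.3.3), fitting group alone. Benjamini-Hochberg adjustment ran over all tested genes, and called means an adjusted p under 0.05. The SE is the log2 fold change divided by the square root of F. CPM values are relative to the TMM-scaled library size, except for the membership threshold, which used library totals. The procedure was tested on simulated counts.

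The members and gene lists were chosen with earlier results of these data known. Named are called members, the 3 with the highest FPKM, the 3 with the smallest p and the 2 with the largest fold change in each role group, all type IV and laminin chains, genes beside the level threshold, and, in the companion lists, called genes and the 2 with the smallest p. The values of 1 member are not reported here, in text or figures, though it enters the counts and medians. Exceptions, chosen after their values were seen, are stated. No label gives the litter, so p-values measure only the spread between these samples. No libraries were copies (chi-square per degree of freedom 7.73 to 19.6 within groups). Whether equal replicate numbers pair the libraries is not known. The correlations of their deviations were 0.19, 0.35 and -0.24, and those of unequal numbers ranged from -0.43 to 0.36. With 3 libraries per group these values cannot exclude a shared litter or batch. The alternatives were other scalings, filters, terms, tools (DESeq2 1.42.0, limma 3.58.1), a length offset and leaving out each library. All 53 members matched GENCODE vM39 by identifier.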

Additional observations from a re-analysis of the deposited data

How the results depend on the processing

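Which genes were called depended on the processing. The main fit called 1 member higher and 0 lower, and 97 (0.575%) and 301 (1.79%) of 16859 genes. At an adjusted p under 0.1 these 4 counts were 7, 1, 637 (3.78%) and 1016 (6.03%). With DESeq2 they were 5, 1, 541 (3.39% of 15961 genes) and 839 (5.26%). With no low-count filter they were 17, 1, 1200 (3.73% of 32210 genes) and 1178 (3.66%). With labelled sex as a term they were 3, 1, 193 (1.14% of 16859 genes) and 416 (2.47%). The sex term used the label of Control replicate 2, which its Y-linked RNA goes against. With an offset for gene length, or limma on log2 FPKM plus 0.1 or plus 1, all 4 counts were 0, where 20, 14 and 11 members (11.5%, 10.5% and 10.4% of all genes) were higher and 1 each lower (9.80%, 12.5% and 12.6%) at an unadjusted p under 0.05. Upper-quartile scaling called 78 genes higher (0.463%) and 119 lower (0.706%), with 1 and 0 members. With the replicate block, for which no pairing by number is known, 2 and 0 members and 258 (1.53%) and 390 (2.31%) genes were called. Leaving out 1 library gave 0 to 8 members higher, 0 to 1 lower, 0 to 373 genes higher (up to 2.16%) and 0 to 718 lower (up to 4.16%). The cause was not tested.

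The median log2 fold changes were positive in every alternative for all members and for the 3 role groups. Over all members the median was 0.13 with limma on log2 FPKM plus 1. For basement membrane genes it was 0.36 with the length offset, and for other collagens 0.44 and 0.14 with limma on log2 FPKM plus 0.1 and plus 1. Leaving out 1 library gave 0.25 to 0.46 for all members, 0.12 to 0.41 for basement membrane, 0.22 to 0.50 for fibrillar and 0.44 to 0.55 for other collagens. The count of members whose MeHg libraries all lay higher was then 15 to 26, beside 16.5% to 21.9% of all genes.

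Fold changes near 0 turned sign. With the length offset those of Col18a1 (0.054), Lamc1 (0.065), Lama1 (0.039), Lama2 (0.0086), Lama3 (0.055) and Lamb3 (0.011) were positive, and with upper-quartile scaling those of Col18a1 (0.029) and Lamc1 (0.023). Leaving out 1 library gave -0.14 to 0.16 for Col18a1, -0.054 to 0.046 for Lamc1, -0.010 to 0.33 for Col4a5, -0.043 to 0.15 for Col4a6, -0.12 to 0.025 for Lamb3 and -0.23 to 0.037 for Lama1. It gave -0.18 to 0.11 for Lama3 and -0.21 to 0.54 for Col22a1. Depth limits the precision of members with few counts, such as Col6a4, Col22a1 and Col28a1.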
